A study of Mus musculus with 531 samples.

Results

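Dnmt1, Uhrf1 and Dppa3, 3 of the 22084 genes counted, were followed through single cells of mouse embryos from before implantation to the start of gastrulation. They were chosen by name for their part in copying DNA methylation when a cell divides. Dnmt1 is the methyltransferase that restores methyl groups on the new strand after replication, and Uhrf1 is the protein that recognises the half-methylated DNA and brings Dnmt1 to it. Dppa3, also called Stella or PGC7, binds Uhrf1 and keeps it off chromatin, and it is known as a gene of the oocyte, of naive pluripotent cells and of germ cells. The period studied is the one in which the embryo leaves a state of low methylation and gains it across the genome.

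The cells came from untreated embryos of the strain C57Bl/6Babr, and none of the groups carried a mutation or received an agent. By the labels there were 91 cells of 5 embryos at E4.5, 80 cells of 1 embryo at E5.5 and 93 cells of 2 embryos at E6.5. The number of E4.5 embryos in the labels, used here throughout, is not the one in the study's methods. Trophectoderm had been taken off by immunosurgery at E4.5, and extraembryonic tissue by dissection at the later stages, and cells were then picked singly by pipette. RNA was read by Smart-seq2 after separation from the DNA of the same cell, and the bisulfite libraries made from that DNA were not analysed here. The level of a gene is given here as CPM, the counts of the gene scaled to the total of the cell or of the summed cells, or as log2(CPM + 1).

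Cells with at least 50000 counts and 2000 detected genes were kept: 75 of E4.5, 59 of E5.5 and 83 of E6.5. Their median depth was 918469, 1511811 and 1107378 counts, and their median number of detected genes was 6985, 5242 and 9304. Leiden clusters, found without the 3 genes or the lists of related genes described below, but with the marker genes and from the same cells, gave 24 epiblast-like and 51 endoderm-like cells at E4.5. At E5.5 the endoderm group consists of 8 cells in which Amn, Cubn, Dab2 and Apoa1 each reached 10 CPM, and the labels number them 12, 24, 36, 48, 60, 72, 84 and 96. The other 51 cells at E5.5 form the epiblast group, in which Cubn had no read and 7 of 14 endoderm markers were at 0. At E6.5 there were 15 endoderm-like and 23 mesoderm-like cells, 16 cells of an unnamed cluster led by Gm10800, and 29 cells of a cluster led by Gjb5 and Itga3.

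The Gjb5-led cluster had 8 of 10 epiblast markers raised over the other cells of its stage, but its leading genes were not epiblast markers, so it is called here by its leading gene, although it stands for the epiblast group in the comparisons. At a coarser clustering, resolution 0.3 in place of 0.5, it joined the endoderm-like cells of E6.5 in a single cluster of 44 cells. In it, 12 of 14 endoderm markers and 7 of 8 trophectoderm markers were read in at least 50% of cells. Summed over the list, the trophectoderm markers lay at 156 to 1395 CPM in these cells, against 0 to 217 CPM in the E4.5 epiblast-like cells and 0 to 522 CPM in the E5.5 epiblast group, and the endoderm markers lay at 374 to 9027, 0 to 5674 and 0 to 407 CPM. Ttr, a marker of visceral endoderm, had a read in 83 of 83 cells at E6.5, and Elf5, a trophoblast factor, in 52 of 83. The part of these other cell types in the differences between stages below was not tested. The labels carry prefixes that differ between the stages and split the E4.5 embryos into embryos 1 and 2 and embryos 3 to 5, so anything that follows the prefix cannot be told apart from the stage.

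Dnmt1 (ENSMUSG00000004099) lies on the minus strand of chromosome 9, at chr9:20907209-20959888 of GRCm38, with 7.377 kb of exons. Uhrf1 (ENSMUSG00000001228) lies on the plus strand at chr17:56303321-56323486 with 4.259 kb of exons, and Dppa3 (ENSMUSG00000046323) on the plus strand at chr6:122626410-122630272 with 0.892 kb. In the kept cells 18253, 68783 and 16531 counts fell on them in that order. The only annotated gene that overlaps any of them is the microRNA Mir7081 within Dnmt1, which was not in the count table, and a processed pseudogene of Dppa3 on chromosome X was not in it either. Reads from such a copy could have been counted on Dppa3 or dropped, which the counts do not show.

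Levels of different genes can be set side by side per kilobase of exon. On this scale Dppa3 stood above Uhrf1 in the E4.5 mean and in the E5.5 embryo, and below both other genes at E6.5. At E4.5 the level of Dppa3 was 97.2 ± 58.6 CPM per kb (SD over embryos, n = 5), that of Uhrf1 was 55.4 ± 18.1 and that of Dnmt1 was 6.91 ± 2.42. Dppa3 and Uhrf1 overlapped there, and Dnmt1 was below both in each embryo. In E4.5 embryo 1 Dppa3 was below Uhrf1, at 33.3 against 49.8 CPM per kb, and in embryo 5 at 32.9 against 33.7, while it was above Uhrf1 in the others. In the E5.5 embryo the 3 levels were 109 CPM per kb for Dppa3, 37.2 for Uhrf1 and 5.52 for Dnmt1. At E6.5 Uhrf1 stood at 64.3 ± 38.1 CPM per kb (SD, n = 2), Dnmt1 at 10.4 ± 5.02 and Dppa3 at 2.76 ± 0.048, below both others in each embryo. The Gm10800-led cluster held 34841178 of 75417748 counts in E6.5 embryo 1 and 24000393 of 63332284 in embryo 2. Sums over all cells of this stage lean on it. In embryo 1 Dnmt1 was at 50.8 CPM over all cells, 80.9 in the Gjb5-led, 82.1 in the endoderm-like and 15.1 in the Gm10800-led cells. In embryo 2 Dnmt1 was at 103 CPM over all cells and 109 in the Gm10800-led cells. In E6.5 embryo 2 a single cell held 49.4% of the Uhrf1 counts, and without the cell with most counts of the gene in each embryo the E6.5 levels were 42.5 ± 11.8 for Uhrf1, 8.91 ± 3.605 for Dnmt1 and 1.34 ± 0.87 for Dppa3. At E4.5 they were 65.3 ± 45.4 for Dppa3, 49.1 ± 15.6 for Uhrf1 and 6.06 ± 2.18 for Dnmt1, in the same order as with all cells. The libraries were made by copying transcripts from the poly(A) tail, so a division by exon length is approximate.

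**Figure D1:**
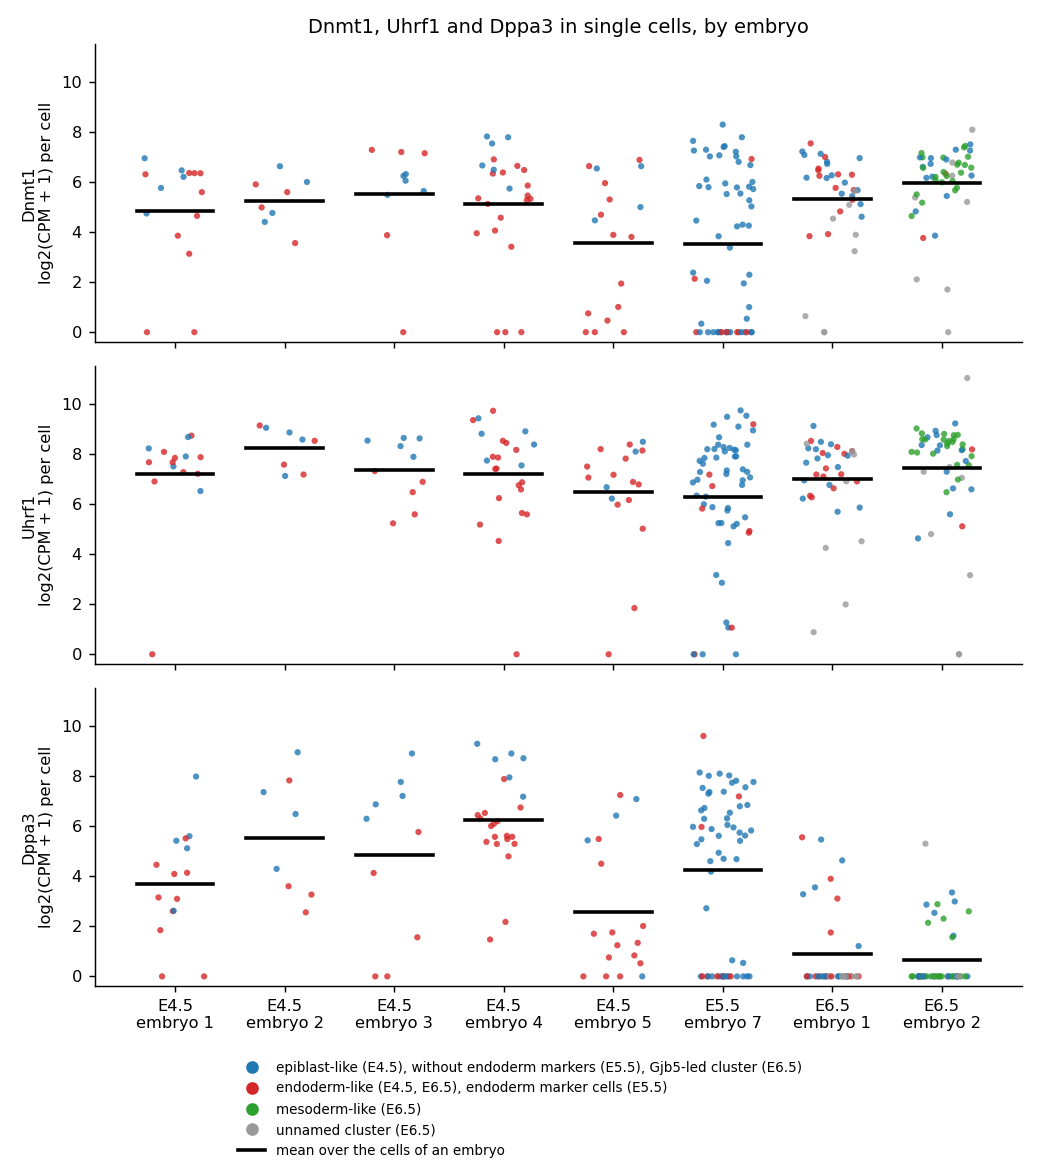
Level of Dppa3, Dnmt1 and Uhrf1 in single cells, with log2(CPM + 1) on the vertical axis and the embryos of each stage along the horizontal axis; each point is a cell, coloured by its group, and the black bar is the mean over the cells of an embryo. Dppa3 falls to or near 0 in the cells of both E6.5 embryos, in which its highest value is 5.55, while the other 2 genes are read in most cells of every stage.

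Dppa3 was lower at E6.5 than at either earlier stage, whereas no difference between stages was called for Dnmt1 or Uhrf1. The mean log2(CPM + 1) of Dppa3 over the cells of an embryo was 3.71, 5.54, 4.85, 6.23 and 2.57 in E4.5 embryos 1 to 5, 4.26 in the E5.5 embryo, and 0.90 and 0.64 in the E6.5 embryos. On the counts summed over cells, its level was 29.7, 124, 124, 127 and 29.3 CPM at E4.5, 97.5 CPM at E5.5, and 2.49 and 2.43 CPM at E6.5. Both E6.5 embryos lay below every earlier embryo, and the E5.5 embryo lay within the range of E4.5. Embryos 1 and 5 were the low ones at E4.5, 1 from each label prefix.

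The test between stages was edgeR's quasi-likelihood test on the sums per embryo, with Benjamini-Hochberg adjustment over all 15358 genes tested. The log2 fold of Dppa3 at E6.5 against E4.5 was -4.96 ± 0.80 (SE, adjusted p = 0.00177), the only 1 of the 3 genes called lower, in a comparison that called 2.61% of all genes lower and 3.95% higher. Against E5.5 the fold was -5.29 ± 0.90 (edgeR adjusted p = 0.0126), where 0.286% of all genes were called lower. This second call rests on the lone E5.5 embryo and on both E6.5 embryos together, since without E6.5 embryo 1 the adjusted p was 0.102, and without embryo 2 it was 0.126. Between E5.5 and E4.5, where 0.918% of genes were called higher and 0.853% lower, Dppa3 had a fold of 0.33 ± 0.75 (edgeR adjusted p = 0.896).

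Cell by cell, the fall of Dppa3 was one both in how many cells had a read and in how high the remaining ones were. It was read in 67 of 75 cells at E4.5 (89.3%), in 41 of 59 at E5.5 (69.5%) and in 20 of 83 at E6.5 (24.1%). With each cell thinned to 50000 counts the numbers were 49, 36 and 10 cells. Cells with at least 100 CPM numbered 18 in the first stage and 17 in the second, and there were 0 of 83 at E6.5, which allows a share of up to 3.61% by counting error alone. These cells share 2 embryos, so the limit speaks of the cells measured and does not bound the share at the stage. At E6.5, 5 of 23 mesoderm-like cells held a read, with a highest value of 2.88, 10 of 29 cells of the Gjb5-led cluster and 4 of 15 endoderm-like cells, so the few cells with a read were spread over the named groups. In E6.5 embryo 2, 1 cell of the cluster led by Gm10800 held 74.7% of the Dppa3 counts.

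Dppa3 fell in the epiblast group as well, but at E6.5 this group is the Gjb5-led cluster, in which endoderm and trophectoderm markers were read. The part of that mixture in the fall was not tested. In the epiblast group the mean log2(CPM + 1) of Dppa3 was 5.34, 6.77, 7.40, 8.44 and 4.73 in the E4.5 embryos, 4.48 in the E5.5 embryo, and 1.21 and 0.95 in the E6.5 embryos. Again both E6.5 values were below all others, and the E5.5 value was just below the lowest E4.5 value. The log2 fold was -6.02 ± 0.95 for E6.5 against E4.5 (edgeR adjusted p = 0.00425), where 1.68% of 13299 genes were called lower and 0.654% higher. For E5.5 against E4.5 it was -1.01 ± 0.93 (edgeR adjusted p = 0.780), with 0.263% of genes called lower and 0.105% higher. For E6.5 against E5.5 it was -5.01 ± 0.99 and missed the threshold (edgeR adjusted p = 0.0770), with 0.196% of genes called lower. Within the endoderm group, which at E6.5 held 3 or more cells in 1 embryo only, the fold of E6.5 against E4.5 was -2.99 ± 1.38 (edgeR adjusted p = 0.513), where 1.15% of 13253 genes were called in either direction.

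Dppa3 has a short transcript, so short genes were looked at as a group. At E6.5 against E4.5, the 593 tested genes with at most 1 kb of exons had a median log2 fold of -0.02 over all cells, with a lower quartile of -2.14, and 4.38% of them were called lower, against 2.32% of genes over 4 kb. In the epiblast group the 442 such genes had a median of -0.41, against 0.06 for genes over 4 kb. There 4.525% of these short genes were called lower, against 1.203% of genes over 4 kb. At E6.5 against E5.5 over all cells, 1.686% of the 593 short genes were called lower, against 0.099% of genes over 4 kb. All 1958 genes of this length together took 6.31% to 7.19% of the counts at E4.5, 5.90% at E5.5, and 6.24% and 5.10% at E6.5, as medians over the cells of an embryo. In the epiblast group these shares were 6.91% to 7.57% at E4.5, 5.99% at E5.5, and 6.16% and 4.85% at E6.5. The mean of Dppa3 in that group was 4.48 at E5.5, and 1.21 and 0.95 in E6.5 embryos 1 and 2. In the Gm10800-led cluster the shares of short genes were 11.9% and 11.04%. The part of transcript length in the difference of Dppa3 was not tested.

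Within E4.5, Dppa3 was lower in endoderm-like than in epiblast-like cells. Its level in epiblast-like against endoderm-like cells was 73.9 against 10.4 CPM in embryo 1, 191 against 45.8 in embryo 2, 224 against 12.96 in embryo 3, 372 against 69.95 in embryo 4 and 81.8 against 17.6 in embryo 5. It was lower in the endoderm-like cells of all 5 embryos, by 4.17 to 17.3 times. On these sums the groups did not overlap, though embryos 1 and 5 had little more in the epiblast-like cells than embryo 4 had in the endoderm-like cells. As mean log2(CPM + 1) Dppa3 was also lower in 5 of 5 embryos, but the groups overlapped, with 4.73 and 5.34 in the epiblast-like cells of embryos 5 and 1 and 5.49 in the endoderm-like cells of embryo 4. With the embryo as a block, the log2 fold of endoderm-like against epiblast-like cells was -2.77 ± 0.42 (edgeR adjusted p = 1.66e-05). In this comparison 4.84% of 13724 genes were called lower and 5.87% higher. Within label prefixes the fold was -2.51 in embryos 1 and 2 alone, which was not called (edgeR adjusted p = 0.114), and -2.92 in embryos 3 to 5 alone (edgeR adjusted p = 0.000133). Without the block it was -2.65 (edgeR adjusted p = 0.00599). Whether the lineage difference of Dppa3 was larger than that of Dnmt1 or Uhrf1 was not tested. Endoderm-like cells were not without Dppa3, as 44 of 51 had a read, against 23 of 24 epiblast-like cells.

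At the later stages the lineages could be set side by side in 1 embryo each. At E5.5 the sum over the 8 endoderm cells was 144 CPM and that over the epiblast group 88.3 CPM, but 87.5% of the endoderm counts came from 1 cell, and the mean log2(CPM + 1) ran the other way, 2.84 against 4.48. In E6.5 embryo 1 the levels were 4.17 CPM in endoderm-like cells and 5.03 CPM in the Gjb5-led cluster. None of the 3 genes was called between these E6.5 groups (edgeR adjusted p of 1 for each, unadjusted p between 0.752 and 0.989), where 0.00729% of genes were called. The change of the lineage difference from E4.5 to E6.5 was 2.49 ± 0.99 for Dppa3 on the log2 scale and was not called (edgeR adjusted p = 1), and 0.211% of genes were called for it.

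**Figure D2:**
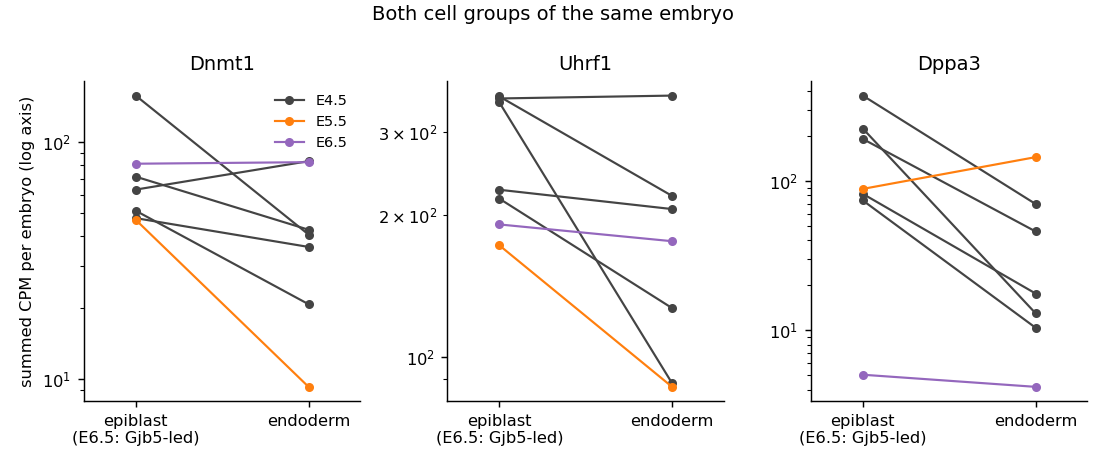
Summed CPM of each gene in the epiblast group (left) and the endoderm group (right) of the same embryo, on a logarithmic axis; each line is an embryo, grey for E4.5, orange for E5.5 and purple for E6.5. All 5 E4.5 lines fall for Dppa3, while 4 of 5 fall for Dnmt1 and for Uhrf1, and the E6.5 line is near level for the 3 genes.

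Uhrf1 was not called by edgeR in any comparison with all embryos included. Its mean log2(CPM + 1) was 7.20, 8.25, 7.34, 7.20 and 6.46 in the E4.5 embryos, 6.29 in the E5.5 embryo, and 6.99 and 7.45 in the E6.5 embryos. The stages overlapped, with the E5.5 embryo lowest by a small margin. Uhrf1 was read in 72 of 75, 55 of 59 and 81 of 83 cells. The log2 fold of E6.5 against E4.5 was 0.38 ± 0.39 (edgeR adjusted p = 0.612). Of the Uhrf1 counts of E6.5 embryo 2, 49.4% came from 1 cell of the Gm10800-led cluster. Without that cluster the fold was -0.12, and with each cell weighted equally in limma it was -0.07. The part of the 1 cell in the sign was not tested.

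Between the E4.5 lineages, Uhrf1 stood at 226, 353, 347, 357 and 217 CPM in epiblast-like cells and at 206, 358, 88.1, 220 and 127 CPM in endoderm-like cells of embryos 1 to 5. On these sums it was lower in the endoderm-like cells of 4 of 5 embryos, and as mean log2(CPM + 1) in 5 of 5, and the groups overlapped on both scales. The log2 fold of -0.77 ± 0.29 missed the threshold (edgeR adjusted p = 0.0952). It was -0.13 in embryos 1 and 2 alone and -1.18 in embryos 3 to 5 alone (edgeR adjusted p of 1 and 0.0366), and the difference between those sets of embryos was not tested. With cells weighted equally the fold was -1.21 (limma adjusted p = 0.0384). The epiblast group of the E5.5 embryo stood at 173 CPM and that of the E6.5 embryos at 191 and 223 CPM, so that E5.5 and E6.5 embryo 1 lay below every E4.5 value and E6.5 embryo 2 within them. The log2 fold of E6.5 against E4.5 there was -0.66 ± 0.33 (edgeR adjusted p = 0.318). The mesoderm-like cells of E6.5 embryo 2 had a mean of 8.23, and all 23 of them had a read.

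Dnmt1 varied most in whether it was read at all at E5.5. Its mean log2(CPM + 1) was 4.84, 5.22, 5.52, 5.13 and 3.55 in the E4.5 embryos, 3.51 in the E5.5 embryo, and 5.32 and 5.97 in the E6.5 embryos. The E5.5 embryo was lowest, close to E4.5 embryo 5, and the E6.5 embryos overlapped with E4.5. The gene was read in 66 of 75 cells at E4.5, 40 of 59 at E5.5 (67.8%) and 80 of 83 at E6.5 (96.4%). No fold was called over all cells, with 0.78 ± 0.45 for E6.5 against E4.5 (edgeR adjusted p = 0.322), 0.92 ± 0.71 for E6.5 against E5.5 (0.749) and -0.15 ± 0.61 for E5.5 against E4.5 (0.962).

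In epiblast-like cells at E4.5, Dnmt1 stood at 71.4, 47.7, 62.9, 157 and 51.2 CPM in embryos 1 to 5, and in endoderm-like cells at 42.6, 36.1, 82.95, 40.7 and 20.7 CPM. On these sums it was lower in endoderm-like cells in 4 of 5 embryos, all but embryo 3, and the groups overlapped. As mean log2(CPM + 1) over cells it was lower in 5 of 5, and the groups did not overlap, with a lowest epiblast-like mean of 5.44 and a highest endoderm-like mean of 5.09. The log2 fold on the sums was -0.87 ± 0.46 (edgeR adjusted p = 0.283), and with cells weighted equally it was -1.65 (limma adjusted p = 0.0489). All 24 epiblast-like cells had a read, against 42 of 51 endoderm-like cells. For the epiblast group the log2 fold of E6.5 against E4.5 was 0.08 ± 0.54 (edgeR adjusted p = 0.975), with a range of -0.21 to 0.58 over 19 alternatives.

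**Figure D3:**
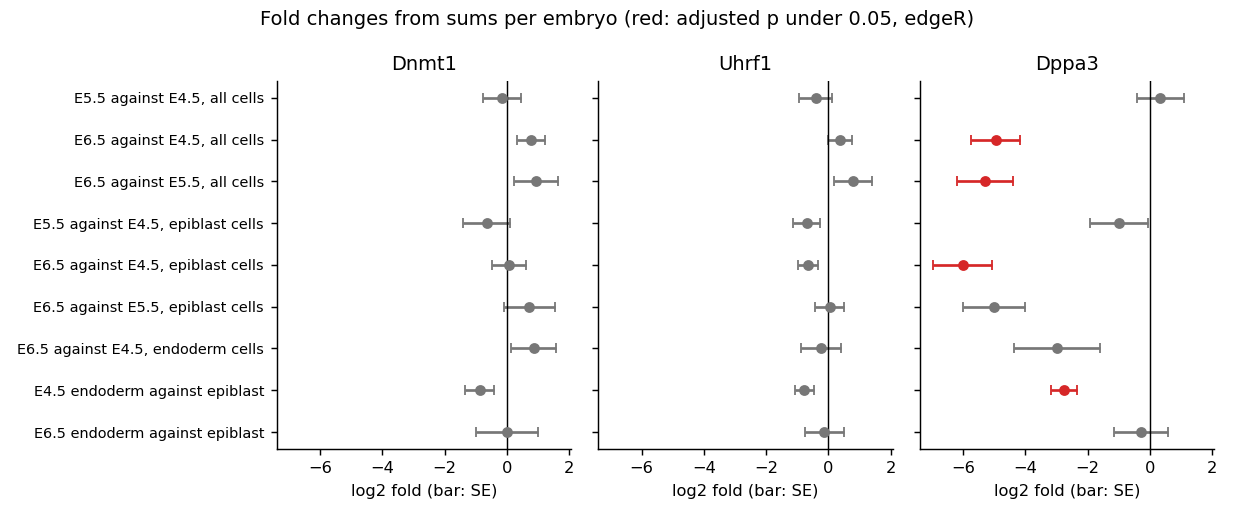
Log2 fold of each gene in 9 comparisons of stages and lineages, with the standard error as a bar, from edgeR on counts summed per embryo; red points passed an adjusted p of 0.05. The red points are Dppa3 at E6.5 against E4.5 over all cells and in the epiblast group, at E6.5 against E5.5 over all cells, and between the lineages of E4.5.

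The cells without a Dnmt1 read at E5.5 were mostly in 1 cluster. In the first E5.5 cluster, 38 cells with a median of 5860 detected genes, 33 cells had a read of Dnmt1, 36 of Uhrf1 and 28 of Dppa3. In the second, once the endoderm cells were set apart, 13 cells with a median of 3039 detected genes remained, of which 5 had a read of Dnmt1, 12 of Uhrf1 and 10 of Dppa3. Dppa3 was at 100 CPM or more in 8 of these 13 cells and in 7 of the 38, so it did not share the drop of Dnmt1 in the cells with few detected genes. Of the 8 endoderm cells, 2 had a read of Dnmt1, and 95.9% of its 145 counts came from 1 of them. Among the cells with at least 200000 counts and 4000 genes the E5.5 mean of Dnmt1 was 4.48 in place of 3.51. The part of library quality in the low E5.5 level of Dnmt1 was not tested.

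Across single cells, Dnmt1 and Uhrf1 went together at the later stages. Pearson's r between Dnmt1 and Uhrf1, as log2(CPM + 1), was 0.297 over 75 cells at E4.5, 0.452 over 59 at E5.5 and 0.633 over 83 at E6.5. These are descriptions over cells that share embryos and differ in depth, and with cells thinned to 50000 counts the values were 0.161, 0.304 and 0.509. In single embryos r was between -0.129 and 0.477 at E4.5, and it was 0.398 and 0.823 in the E6.5 embryos. Within the E6.5 groups it was 0.284 in the Gjb5-led cluster, 0.565 in endoderm-like cells, 0.606 in mesoderm-like cells and 0.503 in the Gm10800-led cluster. Over the other groups it ran from 0.178 in the endoderm-like cells of E4.5 to 0.622 in the 8 endoderm cells of E5.5. With thinned cells it was 0.411, 0.324, 0.212 and 0.430 in the E6.5 groups in that order. Over the other groups the thinned values ran from -0.125 in epiblast-like cells of E4.5 to 0.597 in the endoderm cells of E5.5. With all counts, r between Dppa3 and Dnmt1 was 0.359, 0.0792 and 0.0237 over all cells of the 3 stages, and between Dppa3 and Uhrf1 0.248, -0.119 and 0.0839. Within the 8 groups the r of Dppa3 ran from -0.459 to 0.345 with Dnmt1 and from -0.532 to 0.386 with Uhrf1, and the lowest values were from E6.5 groups in which 10 of 29 and 5 of 23 cells had a read of Dppa3.

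Over all cells of a stage, both genes also went with the number of genes detected in a cell, and with the level of 28 genes that are switched on around S phase, when maintenance methylation takes place. The r of Dnmt1 with detected genes was 0.4662, 0.535 and 0.560 in the order of the stages, that of Uhrf1 was 0.384, 0.550 and 0.700, and that of Dppa3 was -0.0239, -0.0355 and 0.189. Within groups the values varied. For Dnmt1 the r with detected genes was 0.0444 in epiblast-like and 0.547 in endoderm-like cells of E4.5, 0.496 in the epiblast group and 0.436 in the 8 endoderm cells of E5.5, and -0.0624, -0.401, -0.0148 and 0.402 in the Gjb5-led, endoderm-like, mesoderm-like and Gm10800-led cells of E6.5. For Uhrf1 it was above 0 in all 8 groups, from 0.0982 in mesoderm-like cells to 0.717 in the E5.5 endoderm cells. With the mean of the S-phase genes, at cells thinned to 50000 counts, r was 0.473, 0.437 and 0.494 for Dnmt1 and 0.484, 0.434 and 0.680 for Uhrf1. In the same 8 groups, in that order, it was 0.0917, 0.399, 0.309, 0.667, -0.0436, 0.159, 0.399 and 0.492 for Dnmt1, and it ran from 0.254 to 0.891 for Uhrf1. For Dppa3 the values over all cells were 0.415, 0.0678 and 0.157, and those in epiblast-like and endoderm-like cells of E4.5 were 0.0375 and 0.327. How much of the shared variation of Dnmt1 and Uhrf1 moves with the number of detected genes was not tested.

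**Figure D4:**
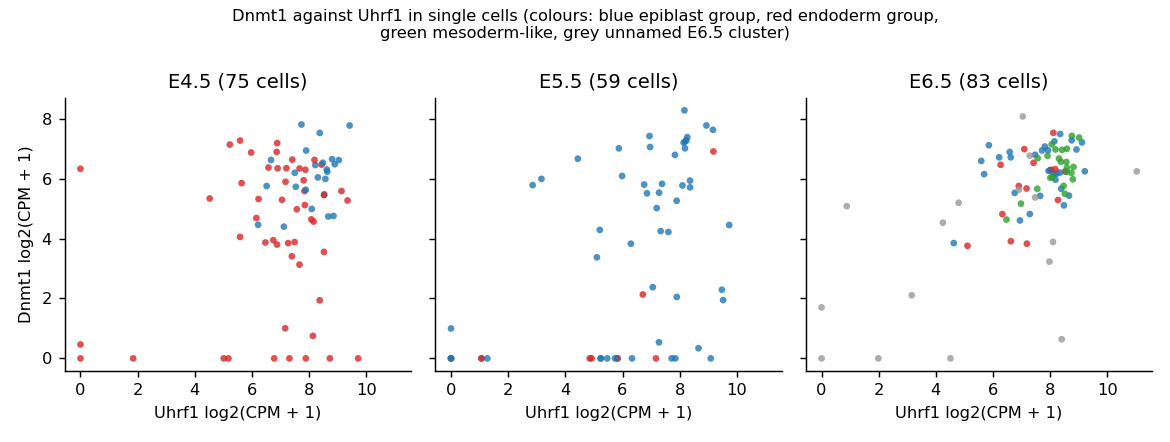
Level of Uhrf1 (horizontal) and Dnmt1 (vertical) in each kept cell, both as log2(CPM + 1), in a panel for each stage, with blue for the epiblast group, red for the endoderm group, green for mesoderm-like cells and grey for the unnamed E6.5 cluster. The cells at 0 for Dnmt1 are most frequent at E5.5, where 40 of 59 cells had a read, and r was 0.297, 0.452 and 0.633 in the 3 panels.

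Of 22 further genes of maintenance methylation, all of them tested, 8 were lower and 1 was higher in endoderm-like than in epiblast-like cells at E4.5, and 13 were not called, where 4.84% of all genes were called lower and 5.87% higher. Their median log2 fold was -1.01, against 0.16 over all genes. The lower genes included the chromatin remodeller Hells, at -1.74, Trim28, the co-repressor that works with Zfp57 to keep methylation at imprinted regions, at -1.78, and Zfp57 itself, at -3.30. Lig1, the ligase of the replication fork, was at -1.32, the deubiquitylase Usp7 at -1.16, and the histone deacetylases Hdac1 and Hdac2 at -1.14 and -1.03. Cdca7l was at -6.19 on a low level of 8.75 CPM in epiblast-like cells. The gene called higher was the co-repressor Ctbp1, at 1.95. The adjusted p of these 9 genes in edgeR was 0.0277 or less, the highest being that of Cdca7l. Dnmt1 and Uhrf1 themselves were not called here, and whether the partners differed from them was not tested.

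At E6.5 against E4.5 over all cells, 3 of the 22 were higher and 1 was lower, where 3.95% of all genes were called higher and 2.61% lower, with a median of 0.42 against 0.07 over all genes. Pclaf, a PCNA-binding protein that Uhrf1 ubiquitylates, was at 10.2 ± 9.24 CPM at E4.5 (SD, n = 5), 274 CPM at E5.5 and 402 ± 359 CPM at E6.5 (SD, n = 2). Its log2 fold was 5.37 for E6.5 and 4.82 for E5.5, each against E4.5, and both were called. Cdca7, which works with Hells, was higher at E6.5 by 1.43, and Cdca7l by 3.39. Zfp57 was lower at E6.5 by a log2 fold of -2.75 over all cells and of -3.37 in the epiblast group, where it was the 1 partner called, beside 1.68% of all genes called lower and 0.654% higher.

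Among 7 genes of new methylation and of its removal, 3 were called at E6.5 against E4.5 over all cells, 1 higher and 2 lower, beside 3.95% and 2.61% of all genes. The de novo enzyme Dnmt3b was higher, at a log2 fold of 1.68, while its cofactor Dnmt3l, at -4.83, and the oxidase Tet2, at -5.00, were lower. Within the epiblast group 3 of the 7 were lower, the added one being Tet1, at -2.09, and 1 was higher, beside 1.68% and 0.654% of all genes. Between the E4.5 lineages Tet1 was lower in endoderm-like cells, at -2.58, and so was Dnmt3l, at -1.36, which makes 2 of the 7 beside 4.84% of all genes. The median fold of the 7 genes at E6.5 against E4.5 was -0.21, against 0.07 over all genes.

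Of 10 other genes of the Dppa family and of germ cells, 3 were lower and 1 was higher at E6.5 against E4.5, beside 2.61% and 3.95% of all genes, with a median of -0.88 against 0.07 over all genes. Dppa5a, a marker of pluripotent cells, stood at 6816 ± 1380 CPM at E4.5 (SD, n = 5), 3107 CPM at E5.5 and 107 ± 9.99 CPM at E6.5 (SD, n = 2), a log2 fold of -5.80 against E4.5. Dppa2 was lower by a log2 fold of -4.31 and its partner Dppa4 by -1.86. The gene called higher, Tfap2c, a factor of both germ cells and trophoblast, had 2 counts in all at E4.5 and stood at 15.7 and 22.4 CPM in the E6.5 embryos. Between the E4.5 lineages Ifitm3, at -5.09, Dppa4, at -1.59, and Dppa5a, at -1.12, were lower in endoderm-like cells, 3 of the 10 genes beside 4.84% of all genes.

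Dppa3 lies among other genes of pluripotent cells on chromosome 6, and its neighbours did not move as a unit. In endoderm-like against epiblast-like cells at E4.5, Nanog was lower, with a log2 fold of -7.46, and so was Gdf3, at -3.94, whereas the glucose transporter gene Slc2a3 was higher, at 2.37, beside 4.84% of all genes called lower and 5.87% higher. The fourth neighbour, Apobec1, had 2 counts in all and was not tested. At E6.5 against E4.5 over all cells, Gdf3 was lower, at -4.90, beside 2.61% of all genes, and Nanog stood at 0.45 (edgeR adjusted p = 0.679). Nanog was at 34.7 ± 17.2 CPM at E4.5 (SD, n = 5), 2.61 CPM at E5.5 and 41.5 ± 2.42 CPM at E6.5 (SD, n = 2). Its lowest value was in the lone E5.5 embryo, in which Gdf3 and Dppa3 were still high over all cells. In the epiblast group the Dppa3 mean of that embryo was just below the lowest E4.5 value.

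Of the 28 S-phase genes, 4 were lower in endoderm-like cells at E4.5 and 24 were not called, beside 4.84% of all genes called lower. The lower ones included Dscc1, a subunit of a clamp loader, at a log2 fold of -2.57, the polymerase gene Pola1, at -2.33, and the helicase gene Mcm3, at -1.13. Gins1 was at -1.28 and was not called (edgeR adjusted p = 0.245). At E6.5 against E4.5 over all cells, 2 were higher and 1 was lower, near the 3.95% and 2.61% of all genes, with a median of 0.34 against 0.07. Chaf1b, a subunit of the chromatin assembly factor, was higher by 2.08, and Ccne1, a cyclin of S-phase entry, by 1.62, whereas Pola1 was lower, at -2.26.

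**Figure D5:**
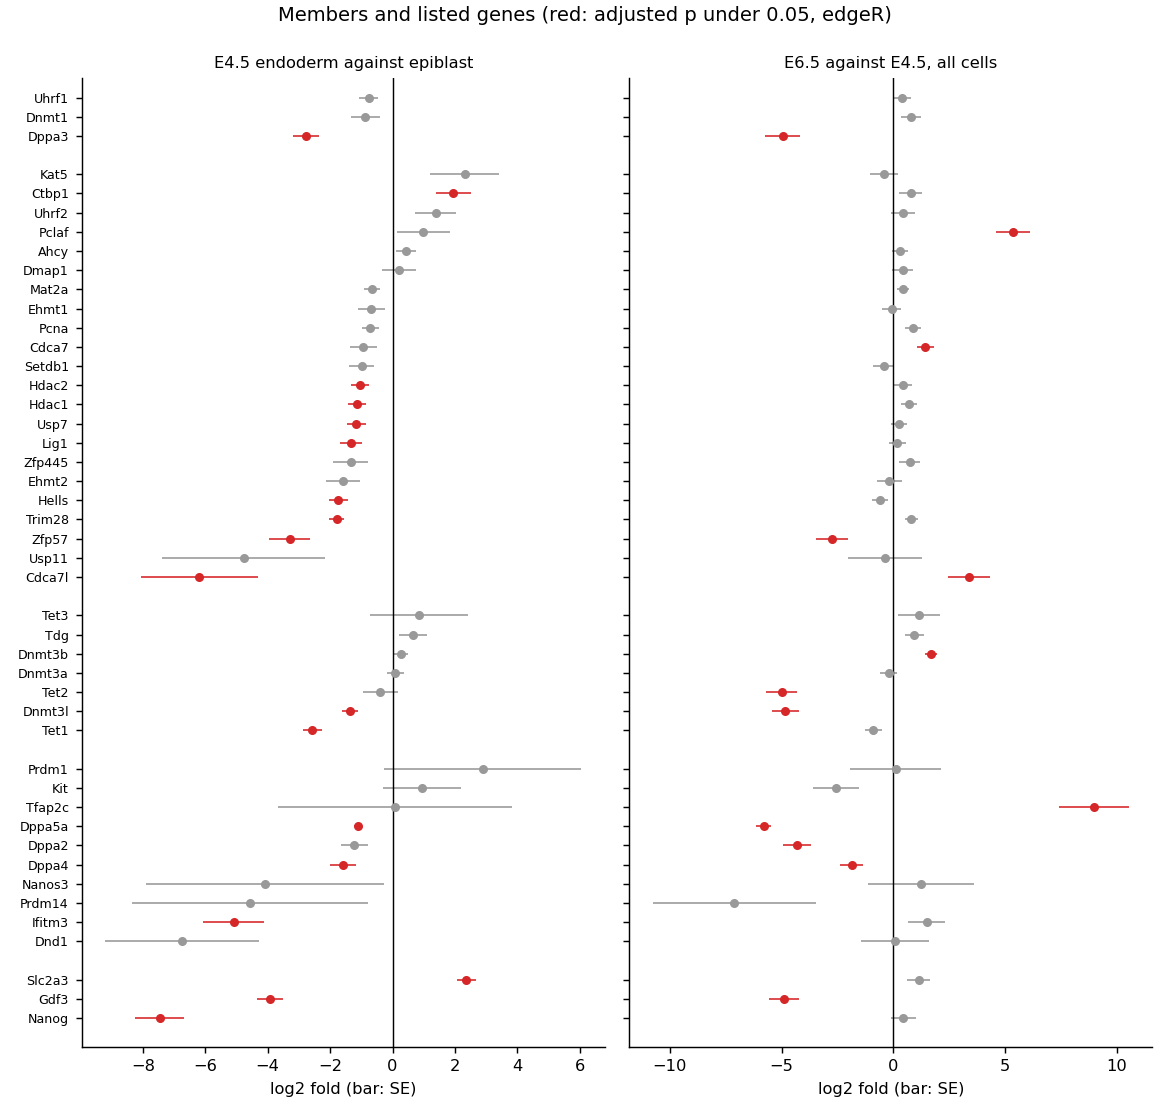
Log2 folds of the 3 genes and of the listed maintenance partners, genes of new methylation and its removal, germline and Dppa genes, and neighbours of Dppa3, in endoderm-like against epiblast-like cells at E4.5 and at E6.5 against E4.5 over all cells; each point is a gene with its standard error, and red points passed an adjusted p of 0.05. Of the 22 maintenance partners, 8 are lower and 1 is higher between the lineages, and 3 are higher and 1 is lower between the stages.

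Over the 16 sums per embryo and group, the genes whose level was most like that of each of the 3 were different sets. For Dnmt1 they were Mapk6, with r of 0.886, Eif2d, Ubac2, Rnf44 and Mcm4, with r of 0.860, among 8049 genes. For Uhrf1 they were Rcor2, with r of 0.845, Ggps1, Prune1, Adar and Pml, with r of 0.832. For Dppa3 they were Uqcr10, with r of 0.970, Gm10250, Atp5j2, Ndufs5 and Ndufb9, with r of 0.924, and all but Atp5j2 had short exonic lengths of 1.03 kb or less. The sums share embryos and stages, so these values describe likeness over 16 points that are not independent.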

How the data were processed

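The authors deposited read counts per gene for 264 single cells, without normalization. The submitters' processing notes name Trim Galore (0.4.2 and 0.4.5), HISAT2 2.1.0, featureCounts and the build GRCm38. The annotation used for counting is not given in the sources used here. Symbols were matched through GENCODE names, for 21907 of 22084 identifiers, and locations are from GENCODE M21. No pair of libraries held identical counts. Reads carry no molecular identifiers, so limits of 3 counts speak of counting error alone, and doublets were not called.

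Groups and embryos come from the labels, which name 5 embryos at E4.5, where the study's methods give 4. The 3 genes and all lists were chosen with earlier results of these data known. Named are the 3 genes, called genes of each list, of the S-phase list genes among the 4 largest folds or called, and for each of the 3 the 5 genes of highest Pearson r over sums, among genes of mean CPM of at least 10.

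Counts were summed per embryo, and per embryo and lineage with 3 or more cells, and tested in edgeR 4.0.16 (TMM, filterByExpr, quasi-likelihood, Benjamini-Hochberg, threshold 0.05) in R 4.3.3. All stages shared 1 fit, so the spread at E5.5, with its single embryo, was taken from the other stages, and lineages within a stage had the embryo as a block. The comparison of lineages at E6.5 had 1 embryo, so its spread was taken from E4.5. Clusters came from scanpy 1.11.5 (2000 variable genes, 20 components, 15 neighbours, resolution 0.5), with 74 genes left out. A cluster was named for the marker list with most genes raised, if at least 3 were. On simulated counts with genes changed by a known fold, edgeR missed most of the changed genes in each comparison simulated and made few false calls, so a gene that was not called may still have changed, and DESeq2 made more false calls than true ones. Alternatives were DESeq2 1.42.0, limma 3.58.1 with equal weight per cell, RLE, no filter, stricter cells, thinning to 50000 counts, lineages by markers or at resolution 0.3, blocks, and each embryo left out.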

Additional observations from a re-analysis of the deposited data

Results flagged for a closer look

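The summed level of Dnmt1 in the epiblast-like cells of E4.5 embryo 4, 157 CPM, stood apart from the other 4 embryos, of which the nearest had 71.4 CPM. It is the sum of 6 cells, 1 of which gave 37.1% of the Dnmt1 counts, and Dppa3 was also highest in these cells, at 372 CPM. It was the 1 value that stood apart in this way among 18 groups of 5 embryos, and chance gives about 1 in 20.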

How the results depend on the processing

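Dppa3 stayed lower and called at E6.5 against E4.5 in 19 of 19 alternatives over all cells, with log2 folds of -5.19 to -3.81, and in 19 of 19 in the epiblast group, -7.45 to -4.96, but at resolution 0.3 no epiblast group remained at E6.5 and its comparisons were not run. Between the E4.5 lineages it was called in 16 of 17, -3.25 to -2.41, and lost with embryos 1 and 2 alone, -2.51. Against E5.5 over all cells it was called in 14 of 17, and lost in limma, -3.49, and without either E6.5 embryo (-5.33 to -5.20 over embryos left out). In the epiblast group it became called at E6.5 against E5.5 with thinned cells, -4.07, DESeq2, -4.96, no filter, -5.01, lineages by markers, -4.38, embryos 1 and 2 alone, -4.95, and without E4.5 embryo 5 (-6.44 to -4.24 over embryos left out), and in endoderm cells at E6.5 against E4.5 with lineages by markers, -5.00. Between the E4.5 lineages limma called Dnmt1, -1.65, and Uhrf1, -1.21, and embryos 3 to 5 alone called Uhrf1, -1.18.

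Signs that turned were of folds not called. For E5.5 against E4.5 these were Dnmt1 with thinned cells, 0.12, stricter cells, 0.0167, and embryos 1 and 2 alone, 0.0758, and Dppa3 with stricter cells, -0.68, and limma, -0.32. For E6.5 against E4.5 over all cells Uhrf1 turned with thinned cells, -0.0596, limma, -0.0701, without the Gm10800-led cluster, -0.12, and without E6.5 embryo 2 (-0.36 to 0.87 over embryos left out). In the epiblast group Dnmt1 turned with embryos 3 to 5 alone, -0.15, lineages by markers, -0.21, and without E4.5 embryo 2 (-0.0597 to 0.53), and Uhrf1 with lineages by markers, 0.39. Against E5.5 Uhrf1 turned there with stricter cells, -0.15, and without the second E5.5 cluster, -0.10. In endoderm cells Uhrf1 turned with embryos 3 to 5 alone, 0.17, limma, 0.52, and without E4.5 embryo 2 (-0.43 to 0.0766). Between the E6.5 lineages Dnmt1 turned with thinned cells, -0.19, embryos 1 and 2 alone, -0.0360, 3 to 5 alone, -0.00822, limma, -0.37, and embryos left out (-0.0395 to 0.0155), and Dppa3 with thinned cells, 0.52. The change of the lineage difference turned for Uhrf1 with embryos 1 and 2 alone, -0.0468, and lineages by markers, -0.31. The causes were not tested.

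The numbers of genes called moved too. At E6.5 against E4.5 over all cells it was 1008, and 1867 in DESeq2, 1692 with no filter, 2507 in limma, 573 with embryos 1 and 2 alone and 363 and 431 without E6.5 embryo 2 or 1. At E5.5 against E4.5 it was 272, and 1238, 748 and 825 in DESeq2, with no filter and in limma, and 591 thinned. At E6.5 against E5.5 it was 59, with a range of 35 to 751, in the epiblast group 35, with 16 to 224, and for E5.5 against E4.5 there 49, with 28 to 554. In the epiblast group at E6.5 against E4.5 it was 311, and 1024 in DESeq2, 1975 in limma, 518 thinned and 106 and 125 without E6.5 embryo 2 or 1. Between the E4.5 lineages it was 1469, and 2803 in DESeq2, 452 with embryos 1 and 2 alone and 876 with 3 to 5 alone, between the E6.5 lineages 1, with 0 to 7, for the change of the lineage difference 29, with 0 to 75, and in endoderm cells 153, with up to 917.

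The embryo numbers 1 and 2 recur at E4.5 and E6.5 for different embryos, and same-numbered embryos did not deviate together (r of -0.0267 and 0.0185 over 15364 genes). With the number as a replicate block, which leaves out E5.5, the fold of Dppa3 at E6.5 against E4.5 was -4.42 over all cells and -5.61 in the epiblast group, no call of the 3 genes changed, and 797 and 550 genes were called, against 914 and 304 without E5.5 and without the block. The splits by label prefix, the fits without the Gm10800-led or second E5.5 cluster and the levels without the top cell were chosen after seeing the data. The 1 E5.5 and 2 E6.5 embryos limit each stage comparison.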
